A study of Homo sapiens with 2 samples.

Results

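The genes described here were 36 targets of the p53 pathway, named by symbol and looked up in a table of counts for 60671 genes. They were measured by RNA-seq in C4-2B cells, a castration-resistant prostate cancer line of the LNCaP lineage. A row was found for 35 of the 36 symbols, the lncRNA FAS-AS1 being the one with no row under its name, and 34 had at least 10 counts over both libraries. EDA2R, the receptor for ectodysplasin A2, was the found gene left below that limit, with 2 counts in each library. The members were split into SESN2, GADD45A and CDKN1A, which the stress factor ATF4 also induces, and the rest.

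The study grew C4-2B cells in medium with serum and compared a vehicle-treated culture with one given 1 µM (R)-9b, an inhibitor of the tyrosine kinase ACK1, overnight. Both groups were the same line, for which the labels name no genetic change. Each group was 1 library, so no value below has a replicate check and no p-value is given. Each difference compares these libraries and not the treatments in general.

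p53 is a transcription factor that is held at a low level by MDM2, an E3 ligase that marks it for destruction and that p53 itself induces. When DNA damage or another stress frees p53 from MDM2, it binds a response element made of a pair of half-sites and turns on genes for cell cycle arrest, DNA repair, redox control and cell death. ATF4 is the effector of the integrated stress response, and some p53 targets are also under its control.

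The p53 response element was searched for in the RefSeq promoter windows of the members, from 250 bases before to 50 bases after each start site on build GRCh38.p14, because the promoter carries the sequence that p53 reads. It was scored as a pair of 10-base half-sites with 0 or 1 base between them, out of 20 positions, with the central C and G of each half-site required. The element reads the same on both strands by its symmetry. By symbol, 32 members had at least one window, 47 windows in all. The windows of 2 members held an element matching at all 20 positions, and those of 4 members matched at 18 or more and of 6 members at 17 or more. Of all 35116 windows, 7 (0.0199%) matched at 20, 187 (0.533%) at 18 or more and 837 (2.38%) at 17 or more. The genes were listed as p53 targets in part for such elements, so their number says nothing about these libraries, and a match is a description and not a bound site.

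The elements that lie in an annotated exon are shown with 4 bases on each side, with the element in capitals. The DDB2 element lay 5 to 25 bases after the RefSeq start site, with 1 base between the half-sites, in a non-coding exon of 2 and an intron of 2 of the 16 transcripts in GENCODE 29. The AEN element lay 34 to 15 bases before the start site, in a non-coding exon of 1 of 6 transcripts. The FDXR element lay 21 to 2 bases before it, in a non-coding exon of 5 of 20 transcripts.
DDB2 (chr11:47214975-47215003, plus strand): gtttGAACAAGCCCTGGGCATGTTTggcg
AEN (chr15:88621302-88621329, plus strand): agccGGGCTTGCCCGGGCATGTGGgagc
FDXR (chr17:74872992-74873019, minus strand): gcccGGGCAGGAGCGGGCTTGCCCtgcg

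The other elements are shown within the 250 bases before the RefSeq start site, again in capitals. The MDM2 element, 94 to 75 bases before the start site, lay in an intron of 7 of the 34 MDM2 transcripts, where the internal promoter known to answer p53 is placed. The SESN1 element lay 49 to 30 bases before the start site, in an intron of 2 of 7 transcripts. The PTCHD4 element ended at the base before the start site, outside both transcripts of the gene in GENCODE 29. DDB2 and PTCHD4 matched at 20 positions, AEN and MDM2 at 18, and FDXR and SESN1 at 17.
MDM2 (chr12:68808767-68809016, plus strand): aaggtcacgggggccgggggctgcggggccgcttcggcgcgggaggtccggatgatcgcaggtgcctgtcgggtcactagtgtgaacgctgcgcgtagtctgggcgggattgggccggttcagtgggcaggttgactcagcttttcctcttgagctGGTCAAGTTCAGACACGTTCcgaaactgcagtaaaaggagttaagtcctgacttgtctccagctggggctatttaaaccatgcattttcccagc
SESN1 (chr6:109008989-109009238, minus strand): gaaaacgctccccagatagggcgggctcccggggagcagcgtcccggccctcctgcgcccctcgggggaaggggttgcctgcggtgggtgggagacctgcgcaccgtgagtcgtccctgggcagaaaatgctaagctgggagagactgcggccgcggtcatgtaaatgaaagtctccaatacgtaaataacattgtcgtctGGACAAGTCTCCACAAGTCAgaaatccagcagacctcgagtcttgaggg
PTCHD4 (chr6:48111198-48111447, minus strand): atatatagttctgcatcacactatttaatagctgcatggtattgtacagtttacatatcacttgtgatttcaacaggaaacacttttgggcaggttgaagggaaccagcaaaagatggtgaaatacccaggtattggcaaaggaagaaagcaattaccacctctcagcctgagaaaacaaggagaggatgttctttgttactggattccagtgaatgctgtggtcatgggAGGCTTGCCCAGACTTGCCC

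**Figure D1:**
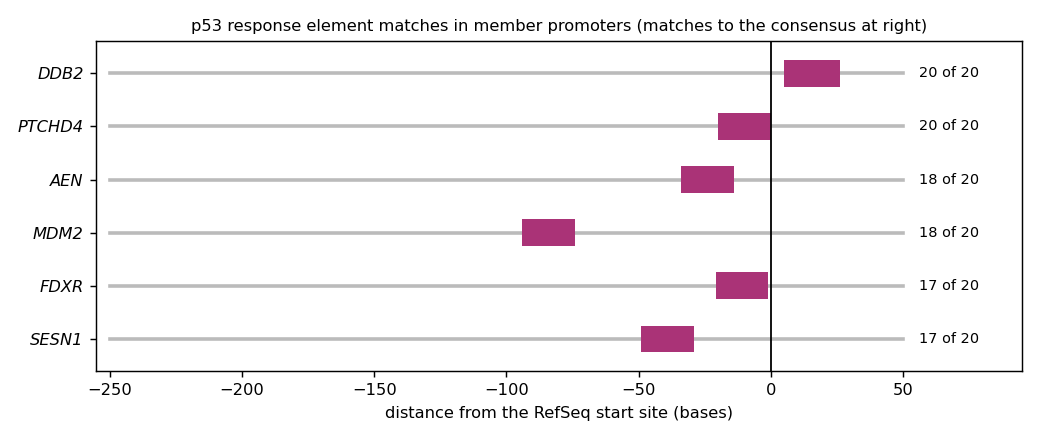
Position of the best p53 response element match in the promoter windows of 6 members, in bases from the RefSeq start site (x axis); each grey line is the window of 300 bases, each bar the element, and the number of matching positions stands at the right. All but the DDB2 element, which starts 5 bases after the start site, lie before it.

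The table held 65207444 counts for vehicle and 57653965 for (R)-9b. Small counts were mostly even, 72.2% and 70.3% of the values from 1 to 20, a pattern that arises if each read of a pair adds 1 count, so intervals were also computed from halved counts. Transcripts encoded in the mitochondrial genome took 1.495% of the vehicle counts and 9.542% of the (R)-9b counts. The members' median ratio was -0.38 with and without those genes in the normalization. The labels call the cell type breast cancer, whereas the study's text describes a prostate line. The 8 prostate markers summed to 4833 counts per 1000000 (CPM, after scaling by edgeR's trimmed mean of M-values, TMM) in vehicle and 9804 in (R)-9b, while 7 breast markers summed to 3.68 and 12.9 CPM, with ESR1 at 2 counts in each library. PIP alone held 124 and 595 of the 245 and 731 breast marker counts. The 5 immune markers summed to 6 and 14 counts, and the 5 stromal markers to 1304 and 2228 counts. Of the stromal counts, COL1A1 alone held 1114 and 2004, beside 181 and 205 for PDGFRB, 8 and 14 for PECAM1, 1 and 3 for COL1A2 and 0 and 2 for DCN. The part of these shifts in the members' ratios was not tested.

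Most measured members were lower in the (R)-9b library, by a modest amount, and a few stood far below the rest. The median log2 ratio of (R)-9b to vehicle over the 34 members was -0.38, beside -0.0049 over all 23446 genes with at least 10 counts, after the same TMM scaling. In a bulk culture, fewer cells with a transcript and less of it per cell cannot be told apart. The point value was below 0 for 23 members and above 0 for 11, beside 11802 and 11644 of all genes tested. The members' split holds for the listed genes, which were chosen with earlier results of these data known. The 50 measured p53 targets outside the list had a median of -0.06, with 27 below 0 and 23 above. Together the 35 members took 2024 CPM of the vehicle library and 1497 CPM of the (R)-9b library. Each ratio carries an exact 95% Clopper-Pearson interval, which covers counting error only.

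A gene was called when this whole interval lay past 1.5-fold. By that rule 5 of the 34 members were lower (GADD45A, SESN2, DRAM1, DDB2 and XPC) and 0 were higher. In GENCODE 29 on GRCh38 the called genes span GADD45A at chr1:67685061-67688338, SESN2 at chr1:28259527-28282491, DRAM1 at chr12:101877351-102012130, DDB2 at chr11:47214465-47239240 and XPC at chr3:14145147-14178783. Over all genes tested, 7.74% were called lower and 8.71% higher. Past 2-fold, 2 members were lower, GADD45A and SESN2, and 0 higher, beside 3.44% of all genes lower and 4.2% higher. With the looser rule that the whole interval lies past no change, 22 members were lower and 5 higher, against 31.1% and 29.8% of all genes. The remaining 7 members had intervals that include no change. When a coefficient of variation of 0.1 in each library is added to the counting error, 15 members were lower and 2 higher by that looser rule, beside 15.6% and 16.7% of all genes. MDM4, FBXW7, POLH, SESN1, SESN3, FDXR and AEN were no longer lower, and BTG2, PLK2 and RRM2B no longer higher. A gene with many counts passes the looser rule more easily, and the shares over all genes were not matched for counts. Of the 23446 genes, 13905 had at least 200 counts over both libraries, as did every measured member but PTCHD4.

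**Figure D2:**
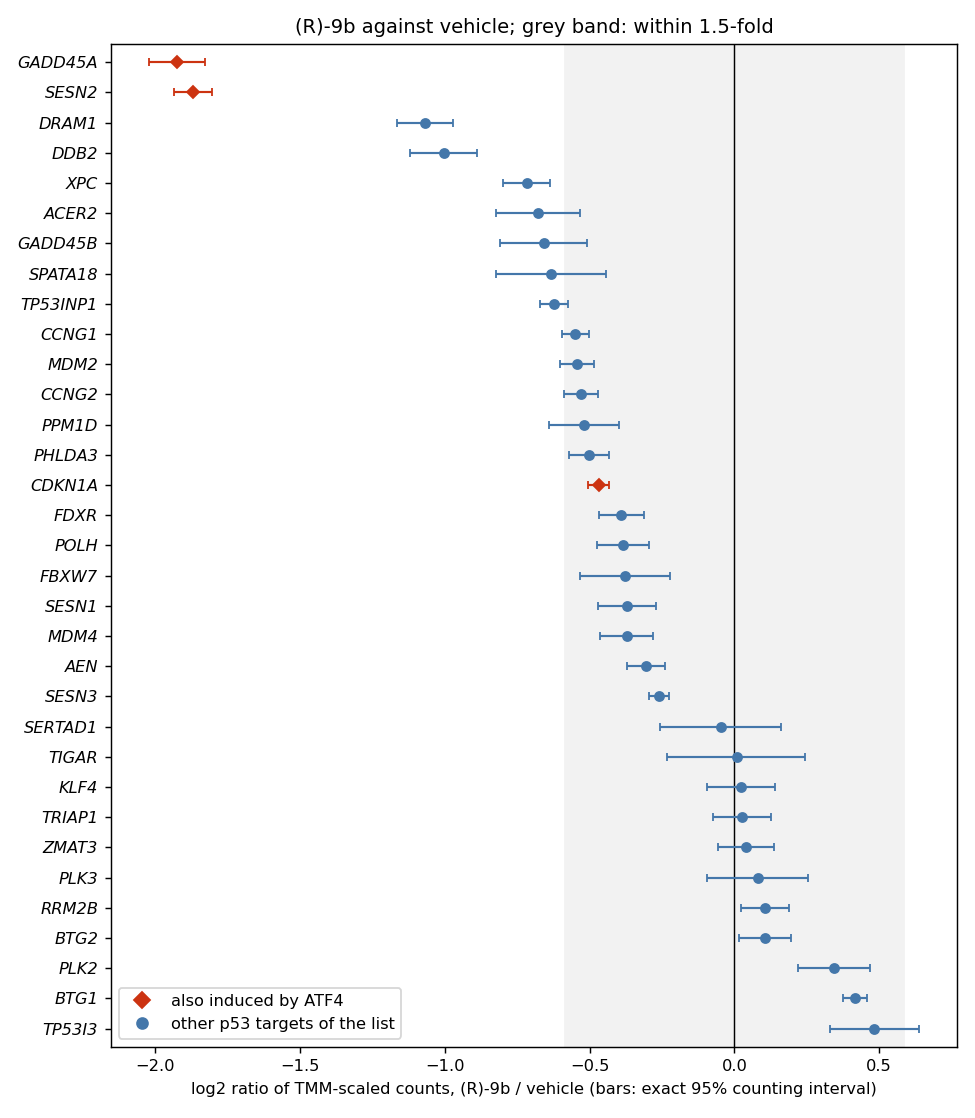
Log2 ratio of TMM-scaled counts, (R)-9b to vehicle (x axis), for the 33 members with more than 50 counts, one row per gene in order of the ratio; bars are exact 95% counting intervals, red diamonds mark genes also induced by ATF4, and the grey band spans 1.5-fold in either direction. GADD45A and SESN2 stand apart at -1.93 and -1.87, and TP53I3 is highest at 0.48.

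The ATF4-shared members differed among themselves. SESN2, sestrin 2, a stress-induced brake on mTORC1, went from 9674 counts (145 CPM) in vehicle to 2245 (39.8 CPM) in the (R)-9b library. The (R)-9b level was 27.4% of the vehicle level, a log2 ratio of -1.87 (95% interval -1.94 to -1.80). GADD45A, a growth arrest and DNA damage protein, had 4799 counts (72.1 CPM) in the vehicle library and 1072 (18.99 CPM) in (R)-9b, a log2 ratio of -1.93 (-2.02 to -1.83). The intervals of these genes overlap, and each lies far below that of the other ATF4-shared member. CDKN1A encodes p21, the inhibitor of cyclin-dependent kinases through which p53 halts the cell cycle. It had 16437 counts (247 CPM) in the vehicle library and 10071 (178 CPM) in (R)-9b, a log2 ratio of -0.47 (-0.50 to -0.43). By gene counts, the interval for CDKN1A was thus below no change but inside 1.5-fold.

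The 31 members without these genes had a median log2 ratio of -0.37. Leaving out 3 of 34 values can move a median only a little, and whether ATF4 also acts on the 31 was not tested. Of the 31, 3 were called lower past 1.5-fold (9.68%, beside the 7.74% of all genes). Past no change, 19 were lower (61.3%) and 5 higher (16.1%), beside 31.1% and 29.8% of all genes. The summed level of the members without the ATF4-shared genes was 1560 CPM for vehicle and 1260 CPM for (R)-9b.

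**Figure D3:**
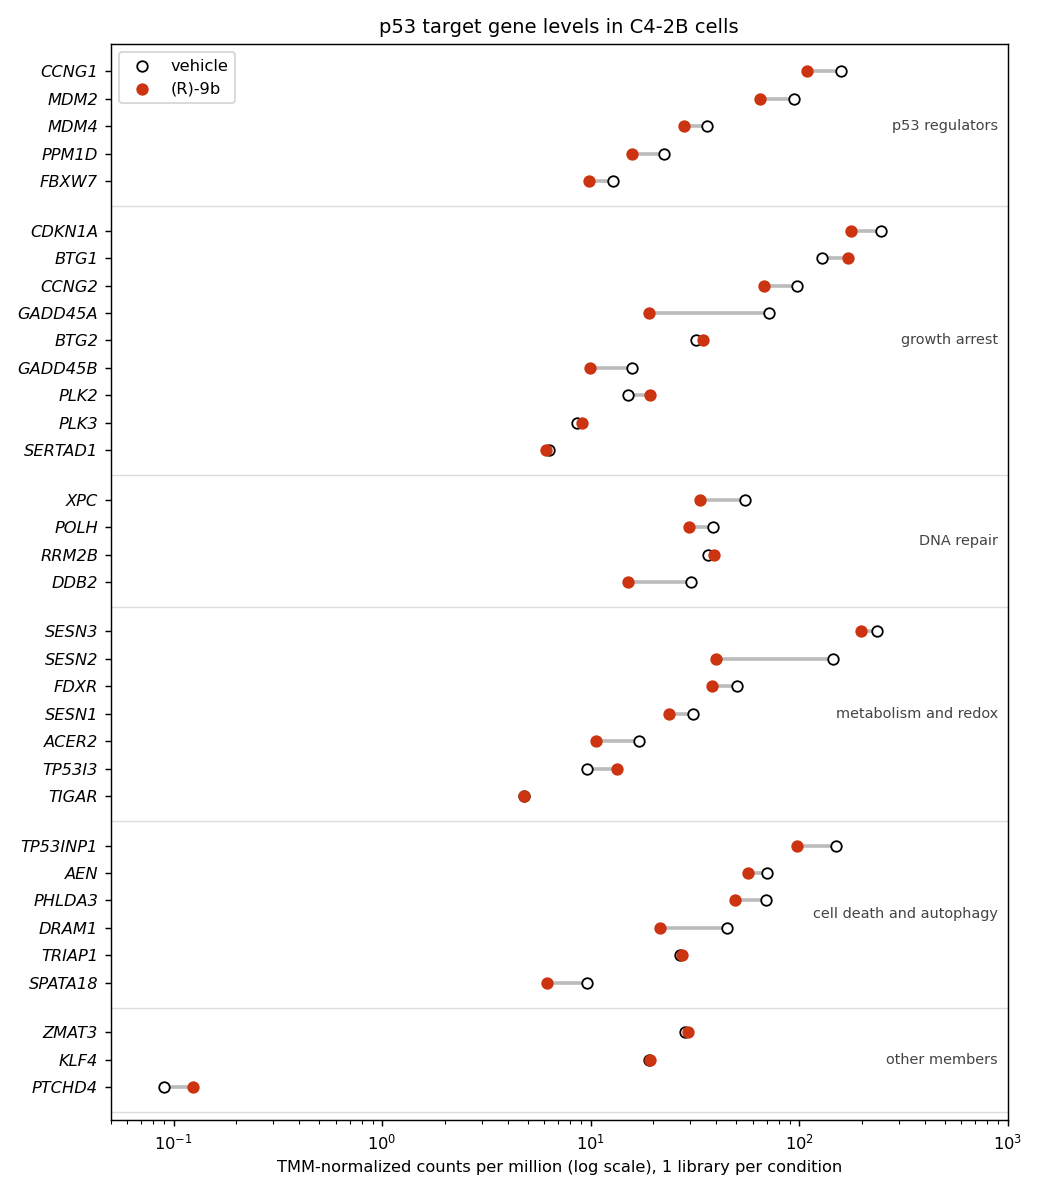
Level of 34 members in TMM-normalized CPM (x axis, log scale), grouped by role; open circles are the vehicle library and red circles the (R)-9b library, with 1 library each and no error bar. The widest gaps belong to GADD45A (72.1 and 18.99 CPM) and SESN2 (145 and 39.8 CPM), and most other pairs lie close together.

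The genes through which p53 restrains itself were all lower in the (R)-9b library, each inside or across 1.5-fold. MDM2 had 6311 counts (94.8 CPM) in the vehicle library and 3675 (65.1 CPM) in (R)-9b, a log2 ratio of -0.54 (-0.60 to -0.48). The whole group kept between 68.4% and 77.3% of its vehicle level. CCNG1, cyclin G1, a p53 target that brings a phosphatase to MDM2, had 10611 and 6151 counts (-0.55). PPM1D, the phosphatase WIP1 that switches off p53 and its kinases, had 1499 and 888 counts (-0.52). MDM4, the MDM2 partner that masks the p53 activation domain, had 2418 and 1585 counts (-0.37), and FBXW7, the substrate receptor of an SCF ubiquitin ligase, had 853 and 557 (-0.38). All 5 counting intervals lay below no change and 0 lay past 1.5-fold, beside 31.1% and 7.74% of all genes. Those shares over all genes were not matched for counts. With the added coefficient of variation of 0.1, the intervals of MDM4 (-0.78 to 0.04) and FBXW7 (-0.81 to 0.05) include no change. The spread of the 5 ratios, from -0.55 to -0.37, was narrower than that of any other role group with more than 3 measured members.

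The growth arrest genes were split. Below CDKN1A in ratio stood GADD45A, and also GADD45B, its paralog, at 1050 and 564 counts (-0.66, interval -0.81 to -0.51), whose interval crosses the 1.5-fold line. CCNG2, cyclin G2, an unconventional cyclin of arrested cells, had 6487 and 3813 counts (-0.53). Higher in the (R)-9b library was the antiproliferative gene BTG1, with 8545 and 9671 counts (128 and 171 CPM, log2 ratio 0.42). BTG1 shares 17.1% of its exon bases with other genes, 10.4% with one on the same strand. PLK2, a stress-induced polo-like kinase, was also higher, with 1007 and 1084 counts (0.34, interval 0.22 to 0.47). BTG2, the BTG1 paralog that p53 induces directly, had 2139 and 1952 counts (0.11), and its interval includes no change once counts are halved. Of this group, 4 members were lower past no change (44.4%) and 3 higher (33.3%), beside 31.1% and 29.8% of all genes. The 2 that were neither were PLK3 and SERTAD1. PLK3, another polo-like kinase, had 574 and 515 counts (0.08, interval -0.09 to 0.26). The cyclin-dependent kinase 4 binding protein gene SERTAD1 had 420 and 345 counts (-0.05, interval -0.26 to 0.16). The signs of PLK3 and SERTAD1 turn when transcript estimates are used.

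Among the repair genes, DDB2 and XPC, both of nucleotide excision repair, were called lower, the latter less firmly. DDB2, the subunit that finds ultraviolet lesions in chromatin, had 2008 counts (30.2 CPM) in the vehicle library and 849 (15.04 CPM) in (R)-9b, 49.9% of the vehicle level, a log2 ratio of -1.004 (-1.12 to -0.89). XPC, which recognizes distorted DNA for the same pathway, had 3675 counts (55.2 CPM) and 1895 (33.6 CPM), a log2 ratio of -0.72 (-0.80 to -0.64). Its call is lost with the added coefficient of variation of 0.1 (interval -1.13 to -0.31) and with transcript estimates. XPC shares 30.4% of its exon bases with genes on the opposite strand, and its share of the counts cannot be told apart if reads were counted without strand. The other repair genes moved less. POLH, the polymerase that copies past ultraviolet damage, had 2573 and 1671 counts (-0.38), whereas RRM2B, the p53-induced subunit of ribonucleotide reductase, had 2432 and 2219 counts (0.11, interval 0.02 to 0.19, which includes no change with halved counts).

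Among genes of metabolism and redox, SESN2 was the one called, and its paralogs were not. SESN1 had 2057 and 1348 counts (30.9 and 23.9 CPM, log2 ratio -0.37, interval -0.47 to -0.27), and SESN3, a sestrin known more for control by FOXO factors, had 15762 and 11166 counts (237 and 198 CPM, -0.26, interval -0.29 to -0.22). Neither interval reaches that of SESN2. In vehicle SESN3 had the most counts of the family, but per kilobase of exon SESN2 stood first, at 42.1 CPM per kilobase beside 22.4 for SESN3 and 6.03 for SESN1. In (R)-9b that order changed, with SESN3 at 18.7, SESN2 at 11.5 and SESN1 at 4.66 CPM per kilobase.

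The rest of that group ran in both directions. ACER2, an alkaline ceramidase, had 1131 and 600 counts (-0.68, interval -0.82 to -0.53), which crosses 1.5-fold, and FDXR, the mitochondrial ferredoxin reductase, had 3351 and 2168 (-0.39). TP53I3, a quinone oxidoreductase also called PIG3, had 640 counts (9.61 CPM) in the vehicle library and 759 (13.4 CPM) in (R)-9b, the highest ratio of the members with more than 50 counts (0.48, interval 0.33 to 0.64). TIGAR, a bisphosphatase that slows glycolysis, had 319 and 272 counts (0.01, interval -0.23 to 0.25). TIGAR overlaps another gene on the same strand over 42.6% of its exon bases.

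The cell death and autophagy genes were lower past no change in 5 of 6 measured members (83.3%), beside 31.1% of all genes. That share over all genes was not matched for counts. DRAM1, a lysosomal protein that p53 uses to drive autophagy, had 3016 counts (45.3 CPM) in the vehicle library and 1221 (21.6 CPM) in (R)-9b, a log2 ratio of -1.07 (-1.16 to -0.97). TP53INP1, which activates p53 and takes part in autophagy, had 10067 and 5542 counts (-0.62, interval -0.67 to -0.58), its upper end lying just inside the 1.5-fold line at 0.585 on the log2 scale. SPATA18, also called MIEAP and linked to mitochondrial quality control, had 638 and 349 counts (-0.63, interval -0.82 to -0.44). PHLDA3, an inhibitor of AKT at the membrane, had 4637 and 2777 (-0.50), and AEN, an apoptosis-enhancing nuclease, 4694 and 3220 (-0.31). PHLDA3 shares 19.1% of its exon bases with another gene on the same strand. With the added coefficient of variation of 0.1 the AEN interval (-0.71 to 0.10) includes no change. TRIAP1, a small protein that blocks apoptosis, stood aside with 1792 and 1548 counts (0.03, interval -0.07 to 0.13), and its sign turns under total-count scaling.

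The members with no common role had intervals that include no change. ZMAT3, an RNA-binding zinc finger protein that p53 induces in many tissues, had 1897 and 1654 counts (28.5 and 29.3 CPM, log2 ratio 0.04). KLF4, a zinc finger transcription factor, had 1267 and 1092 counts (19.03 and 19.34 CPM, 0.02), and both signs turn under total-count scaling. PTCHD4, a patched-domain membrane protein, had 6 and 7 counts, too few for any ratio to be read, although its promoter window holds an element matching at all 20 positions.

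The 6 members whose windows hold an element of 17 or more matches were not compared as a group with the rest. DDB2 (-1.004) was called lower past 1.5-fold, MDM2 (-0.54), FDXR (-0.39), SESN1 (-0.37) and AEN (-0.31) were lower past no change, and PTCHD4 was barely counted. The ATF4 core TGATGNAA was searched on both strands in the same windows and found in 1 member, PLK3, 133 bases before the start site, and in 3.62% of all windows. The windows of SESN2 and CDKN1A do not hold these letters, which says nothing of ATF4 itself. GADD45A, TP53INP1, PHLDA3 and RRM2B had no window here and were searched for neither sequence.

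By level per kilobase of exon, CDKN1A was first among the members in both libraries, at 80.9 CPM per kilobase in vehicle and 58.5 in (R)-9b. CCNG1 came second in vehicle (51.5) and the third in (R)-9b (35.2), next to BTG1 (35.3). Among the members that lost rank, GADD45A moved furthest, from 4 to 12, followed by SESN2, from 3 to 9, and DDB2, from 21 to 26. Among those that gained rank, TP53I3 moved furthest, from 25 to 17. BTG1 moved from 6 to 2 and TRIAP1 from 9 to 4, the latter at 18.66 and 19.01 CPM per kilobase. These ranks rest on 1 library each, and exon length was taken as the union of all GENCODE 29 exons, which understates genes that use few of them.

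Estimated counts of single transcripts, made by the authors with Salmon, followed the gene counts for most members. They gave -2.00 for GADD45A, -1.90 for SESN2, -1.06 for DDB2 and -0.47 for MDM2 on the log2 scale. The transcripts in that table held only a small part of some genes, as a share of vehicle fragments with 2 gene counts taken as 1 fragment: 2.34% for DRAM1, 3.39% for CDKN1A, 4.13% for XPC and 16.99% for FDXR. For DRAM1 the estimate was 35.3 fragments in vehicle and 27.6 in (R)-9b (-0.10), and for XPC 75.8 and 52.1 (-0.29), so neither carries a call by this measure. For CDKN1A it was 279 and 197 fragments (-0.25), with an interval of -0.52 to 0.01 that includes no change. TIGAR went the other way in share, with estimates of 218% and 261% of its gene-level fragments and a ratio of 0.28. BTG1 also passed its gene-level fragments, at 114.8% and 118%, with a ratio of 0.47.

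**Figure D4:**
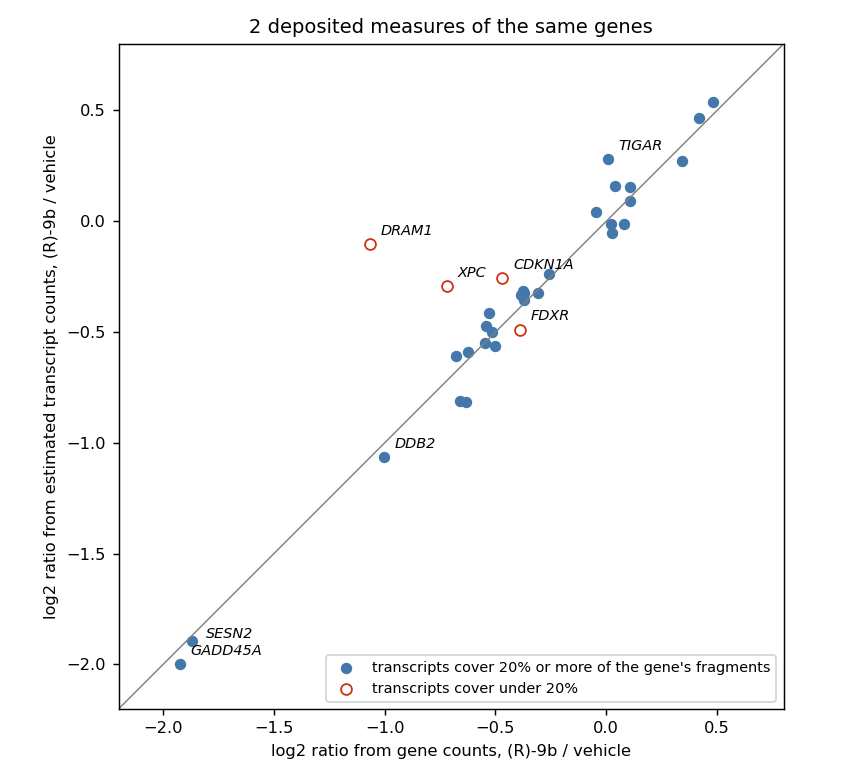
Log2 ratio of (R)-9b to vehicle from gene counts (x axis) and from summed transcript estimates (y axis) for 33 members, with the line of equality; open red circles are genes for which the transcripts hold under 20% of the fragments. SESN2, GADD45A and DDB2 lie near the line, and DRAM1 (-1.07 and -0.10) and XPC (-0.72 and -0.29) lie off it.

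Within some members the transcripts differed. DDB2-201, the main coding transcript, was estimated at 586 fragments in vehicle and 178 in (R)-9b, and its share of DDB2 was 84.7% and 63.6%. POLH-201 had 389 and 160 fragments while POLH-202, which starts at a nearby site, had 538 and 471. For PPM1D, the transcript marked for nonsense-mediated decay, PPM1D-202, had 337 and 121 fragments, and the coding PPM1D-201 had 217 and 155. Another coding transcript, PPM1D-204, went the other way, with 21.35 fragments in vehicle and 66.71 in (R)-9b. MDM4-203 had 352 and 419 fragments, whereas MDM4-207 was estimated at 240 in vehicle and listed at 0 in (R)-9b. MDM2-225, which starts 15 bases before the RefSeq start site below the p53 element, held 70.6% and 70.5% of the MDM2 fragments assigned, at 898 and 544. These estimates share reads between similar transcripts, and their error is not known here.

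The regulators and partners of p53 outside the members had no common direction, with a median of -0.03 over the 13 with at least 10 counts. CREBBP, a histone acetyltransferase that coactivates p53, was the lowest, with 13323 and 6072 counts (-0.90). It was the 1 gene called lower past 1.5-fold (7.69% of the list, beside 7.74% of all genes). EP300, its paralog, came next with 9740 and 5911 counts (-0.48). The damage kinase genes CHEK2 (1001 and 1206 counts, 0.51) and ATR (2367 and 2804, 0.48) were the highest, and 0 of the 13 were called higher. Past no change, 6 were lower (46.2%) and 4 higher (30.8%), beside 31.1% and 29.8% of all genes.

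A further 53 p53 targets outside the members, of which 50 had at least 10 counts, went both ways, with a median of -0.06. Of these, 9 were called lower (18%) and 3 higher past 1.5-fold, beside 7.74% and 8.71% of all genes. Past no change, 20 were lower (40%) and 17 higher (34%), beside 31.1% and 29.8% of all genes. GDF15, a secreted stress cytokine that ATF4 also induces, had 144034 counts (2163 CPM) in the vehicle library and 15651 (277 CPM) in (R)-9b, a log2 ratio of -2.96. SCN3B, a sodium channel subunit, had 24 counts and 0. Its vehicle value is 6.78-fold the floor of 3 counts in the (R)-9b library, without counting error. The upper end of its 95% interval is -2.35 on the log2 scale. The highest were GLS2, a mitochondrial glutaminase, with 35 and 124 counts (2.06), and SFN, the 14-3-3 sigma protein of the damage checkpoint, with 102 and 212 counts (1.29).

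The cell cycle genes that p21 is known to repress through the DREAM complex showed no shared shift. Their median was 0.04 over 15 genes, and 0 were called past 1.5-fold in either direction. Past no change, 6 were higher (40%) and 4 lower (26.7%), beside 29.8% and 31.1% of all genes. CDC20, an activator of the anaphase-promoting complex, had 5674 and 6889 counts (0.52) and AURKA, a mitotic kinase, 1754 and 2064 (0.47). CENPA, the centromeric histone, had 885 and 502 (-0.58), and CDC25C, a phosphatase that starts mitosis, had 659 and 393 (-0.51).

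The ATF4 targets outside the members were lower as a list. All 15 points lay below 0, with a median of -1.67, and 14 were called lower past 1.5-fold (93.3%, beside 7.74% of all genes). DDIT3, the stress factor CHOP, had 17941 counts (269 CPM) in the vehicle library and 737 (13.0 CPM) in (R)-9b, a log2 ratio of -4.37. ATF3, another stress transcription factor, had 24273 and 1754 counts (-3.55). At the upper end were ATF5 (4341 and 2920 counts, -0.33), which was not called, and the amino acid transporter SLC7A5 (39239 and 21379, -0.64). The 3 ATF4-shared members lay within the range of this list. SESN2 and GADD45A were below every member that is not ATF4-shared, whereas CDKN1A lay among the rest of the members.

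FOXO factors also control some members, SESN3 and CCNG2 among them. Of 11 measured FOXO targets outside the members, 9 were lower and 2 higher past no change, with a median of -0.23. These are 81.8% and 18.2% of the list, beside 31.1% and 29.8% of all genes, which were not matched for counts. Some of the 9 were small shifts, such as ERBB3 (-0.08) and CITED2 (-0.13). FBXO32, the ubiquitin ligase atrogin-1, had 483 and 117 counts (-1.81), and CDKN1B, the p27 inhibitor of cyclin-dependent kinases, had 5034 and 1617 (-1.40). These were the 2 called lower past 1.5-fold (18.2%, beside 7.74% of all genes). PIK3IP1, a negative regulator of PI3 kinase, was highest at 580 and 652 counts (0.41), followed by PINK1, a kinase of mitochondrial quality control, at 988 and 920 (0.13).

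**Figure D5:**
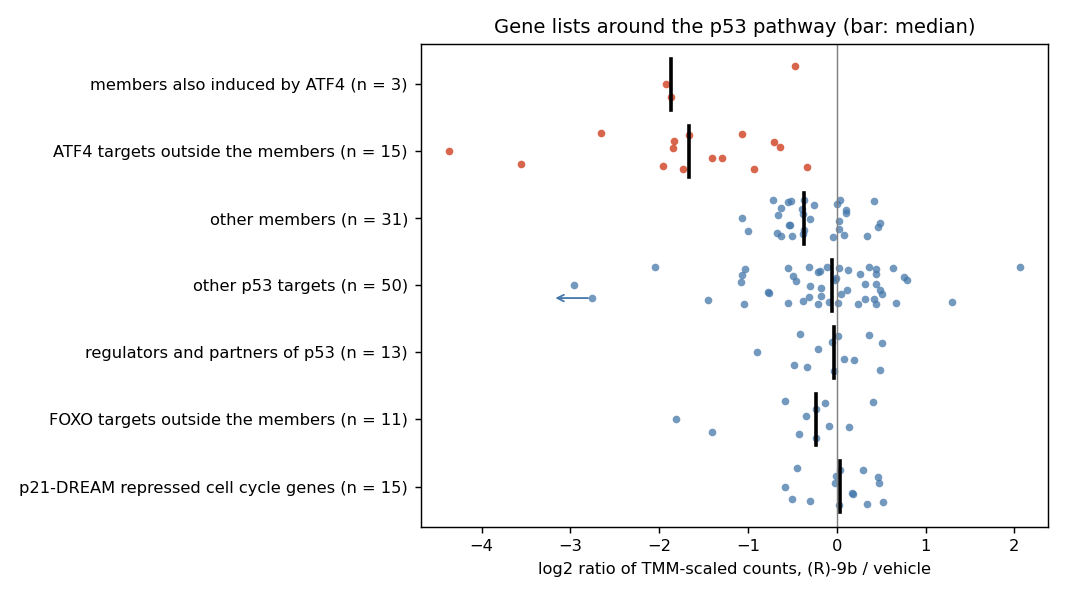
Log2 ratio of TMM-scaled counts, (R)-9b to vehicle (x axis), for each gene of 7 lists (rows, with the number of genes). Points are genes, black bars medians, and red lists are those under ATF4. The arrow marks SCN3B, placed by its vehicle value against a floor of 3 counts in the (R)-9b library. The ATF4 targets (median -1.67) lie left of the 31 other members (-0.37), and the p21-DREAM genes (0.04) lie around 0.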

How the data were processed

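RNA from 1 vehicle-treated and 1 (R)-9b-treated culture of C4-2B cells was sequenced. The deposited gene counts are whole numbers that the authors made with STAR and featureCounts (1.4.6-p5) on hg38. The STAR version is given as 2.5.1a in the submitters' processing notes and otherwise in the paper, and the strand setting of the counting is not given in the sources used here. The deposited transcript table holds estimated counts (expected counts) that the authors made with Salmon (0.8.2). Deposited CPM values and moderated log2 CPM values, made by the authors from the same counts, served as alternatives. Transcript-level CPM tables were not used.

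Here 200 lines repeating a gene were dropped, counts were scaled by TMM (edgeR 4.0.16), and genes whose counts in the 2 libraries summed to 10 or more were compared by the ratio of scaled counts with its exact 95% Clopper-Pearson interval. A call means the whole interval past 1.5-fold. With 1 library a group no test between treatments was possible. Intervals, with a median half-width of 0.10 on the log2 scale over the members, and floors of 3 counts cover counting error only. Exon lengths, overlaps and transcripts came from GENCODE 29 on GRCh38, matched by Ensembl gene identifier, and promoters from RefSeq. Scripts were tested on simulated data. All members were named, with full values for those called and for SESN2, GADD45A, CDKN1A and MDM2, and other lists by counts, medians and their 2 highest and 2 lowest ratios. One gene that the rule also named is not reported here. The members and lists were chosen with earlier results of these data known. Alternatives were other scalings, count minimums, halved counts, an added coefficient of variation of 0.1, other thresholds and transcript estimates. DESeq2 (1.42.0) was used for size factors only.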

Additional observations from a re-analysis of the deposited data

How the results depend on the processing

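With 1 library a group, the spread between cultures is unknown, and counting intervals are narrower than any that would include it. The 5 members called past 1.5-fold were called again under upper-quartile scaling, TMM without mitochondrially encoded genes, halved counts and minimums of 1 and 50 counts. Total-count scaling, which shifts every log2 ratio by -0.06, gave 7 (adding ACER2 and TP53INP1), and DESeq2 size factors gave 6 (adding TP53INP1). An added coefficient of variation of 0.1 gave 4, losing XPC. Estimated transcript counts gave 3, losing DRAM1 and XPC, whose transcripts in that table held 2.34% and 4.13% of the fragments in vehicle. The point ratio alone gave 9, a 2-fold threshold 2, and no fold threshold 27, or 17 (15 lower and 2 higher) with the coefficient of variation of 0.1, a pairing chosen after seeing the data. Leaving out the 4 members with 10% or more of their exon bases shared with another gene, a choice made after seeing the data, gave 4 of 30. All calls past 1.5-fold were lower. The median log2 ratio ran from -0.44 to -0.33 over all members, from -0.43 to -0.32 without the ATF4-shared genes and from -1.93 to -1.83 for those genes. KLF4, PLK3, SERTAD1, TIGAR, TRIAP1 and ZMAT3, none of them called, changed sign under at least 1 scaling or under the transcript estimates. No paired analysis was possible because each group is 1 library.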
